A study of Mus musculus with 8 samples.

Results

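The comparison described here is that of MCE301 cells kept for 24 h with butyrate against cells at 0 h, which uses 4 of the 8 arrays of the study, chosen by their titles as the 2 arrays of each of these times. MCE301 cells come from the colonic epithelium of transgenic mice, and all of them carry the SV40 large T-antigen in a temperature-sensitive form. The cells were given 2 mM sodium butyrate for 0, 6, 12 or 24 h, and total RNA was measured on the Affymetrix Mouse Expression Array 430A, with 2 arrays at each time. The line is 1 immortalised line, and the sources used here do not give the temperature at which it was kept. No array holds cells kept for 24 h without butyrate, so effects of butyrate and of 24 h in culture cannot be told apart here. Whether the 2 arrays of a time stem from different cultures is not in the labels, and the p-values therefore cover just the spread from array to array, which may be technical.

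Butyrate is a short-chain fatty acid made by gut bacteria from dietary fibre, and it is the main fuel of colonic epithelial cells. It also inhibits class I and class II histone deacetylases, the zinc-dependent enzymes that remove acetyl groups from histones and other proteins. In colonic cells in culture it is known for slowing cell division and for raising markers of the mature cells found near the top of the crypt. Large T-antigen binds the retinoblastoma proteins and p53, the main brakes on entry into S phase, and so keeps cells dividing.

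Each value is a probe set signal, a linear intensity with no unit, and each gene is represented by 1 probe set. Genes were compared on the scale log2(signal + 32), where ± is the standard error of the fit, and a gene is called higher or lower at an adjusted p under 0.05 (limma, Benjamini-Hochberg over 7340 genes). The 2% trimmed mean signal was 500.2 on every array, and the arrays of a time correlated at r = 0.982 at 0 h and 0.979 at 24 h across probe sets, which are not independent. All 10 epithelial markers examined passed the filter on low signals. Of these, Krt8, Krt18, Cldn4, Cldn7 and Cdh1 were called higher and Cldn3 and Esrp1 lower, and the sum of the 10 signals was 63990 and 70460 at 0 h and 82730 and 97870 at 24 h. Of 10 markers of absorptive colonocytes, 2 passed, the keratin Krt20 and the carbonic anhydrase Car2, and the villin gene Vil1 had signals of 21.5 and 40.7 at 0 h and 8.8 and 13.6 at 24 h. No marker of fibroblasts, endothelium, Paneth cells, intestinal stem cells, enteroendocrine cells or erythroid cells passed the filter. Of goblet markers Fcgbp was lower, with 224 and 278 at 0 h and 143 and 144 at 24 h. Of 5 smooth muscle markers Cnn1, the actin-binding calponin, rose from 15 and 16.6 to 155 and 211 (log2 change 2.16), and the sum of the 5 signals was 162 and 172 at 0 h and 411 and 421 at 24 h. In RNA from whole cultures, fewer cells that express a gene and less RNA per cell cannot be told apart.

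At 24 h, 1806 of the 7340 genes were higher (24.6%) and 1724 were lower (23.5%), 48.1% in all (limma). Among them 679 were at least 2-fold higher (9.25%) and 700 at least 2-fold lower (9.54%). The changes reached 4-fold in 108 genes in each direction, and 8-fold in 22 that rose and 7 that fell. The signals of the 2 times did not overlap for 5492 genes (74.8%), and the median log2 change of all genes was 0.04. The counts given for gene lists are to be read against 24.6% and 23.5%. Where 0 members of a list were called in a direction, 0 also had an unadjusted p under 0.05 in that direction unless another count is given, and no tool other than limma was run.

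**Figure D1:**
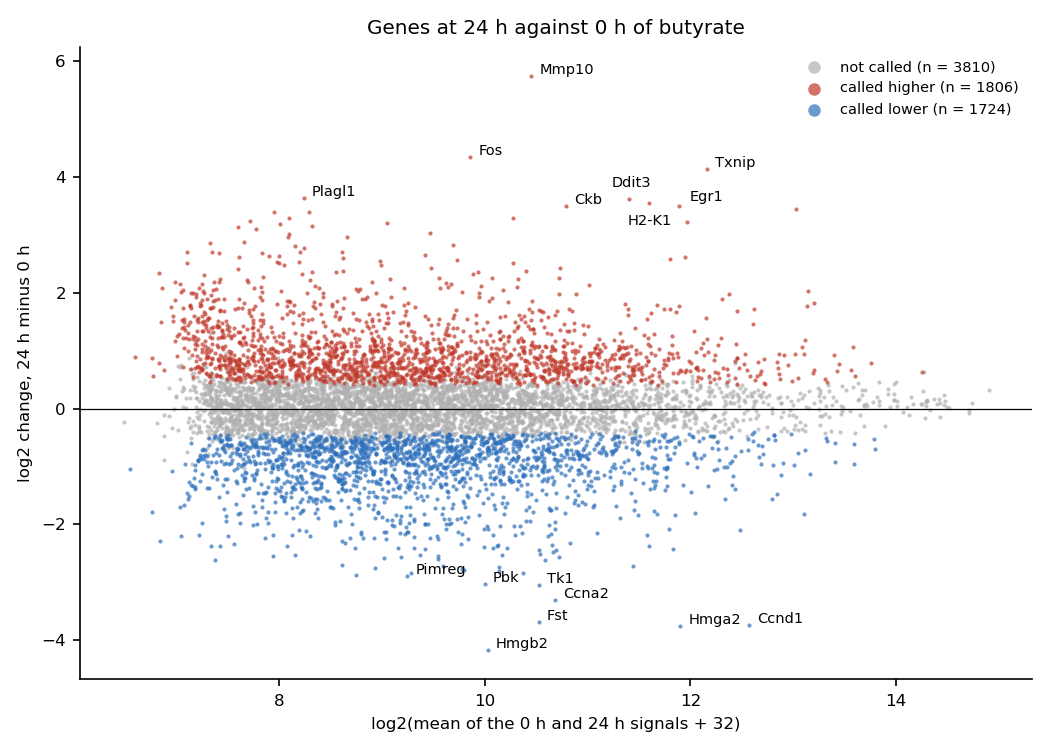
Each point is 1 of 7340 genes, with the log2 of its mean signal at 0 h and 24 h (plus 32) on the horizontal axis and its log2 change from 0 h to 24 h on the vertical axis. Red points are the 1806 genes called higher and blue points the 1724 called lower; the 8 largest rises and the 8 largest falls are labelled, from Mmp10 at 5.75 to Hmgb2 at -4.18.

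The largest rise was that of Mmp10, the secreted metalloproteinase stromelysin-2, which degrades matrix proteins. Its signals were 19.9 and 17.6 at 0 h and 3034 and 2396 at 24 h, a log2 change of 5.75 ± 0.32 (adjusted p = 1.67e-06, limma). The 0 h signals lie below the pseudocount, so the size of the change depends on it, with a range of 4.56 to 6.29 over the alternatives. Of the 4 metalloproteinases tested, the collagenase Mmp13 also rose, from 209 and 139.8 to 592 and 616, and the membrane-type Mmp14, which activates other metalloproteinases at the cell surface, fell from 864 and 1083 to 191 and 284 (log2 change -1.91 ± 0.22). For all 3, both arrays of one time lay above both of the other. The naming rule required this for Mmp10, and it held for 74.8% of all genes. The inhibitor Timp1 rose by 1.47 and the tissue plasminogen activator Plat by 1.68, while the urokinase receptor Plaur, chosen for mention after its value was seen, had a log2 change of -0.58 and was called lower. The inhibitor Timp2 was lower by the fit (log2 change -0.88), a call lost without 0 h array 2 (adjusted p = 0.0542) or 24 h array 1 (0.0591).

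Metalloproteinase promoters are classical places where AP-1, the dimer of Fos and Jun proteins, binds, and Fos was the second largest rise. The promoters of the 2 metalloproteinase genes that rose are shown for that reason, 150 bases upstream of the start in RefSeq's GRCm38.p6 annotation, with the letters TGAGTCA (AP-1 motif, either strand) in capitals. Mmp10 is at chr9:7502192-7502341 (plus strand) and Mmp13 at chr9:7272364-7272513 (plus strand).
Mmp10: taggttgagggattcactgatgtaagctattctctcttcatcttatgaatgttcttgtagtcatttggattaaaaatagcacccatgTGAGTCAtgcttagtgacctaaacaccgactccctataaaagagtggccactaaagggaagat
Mmp13: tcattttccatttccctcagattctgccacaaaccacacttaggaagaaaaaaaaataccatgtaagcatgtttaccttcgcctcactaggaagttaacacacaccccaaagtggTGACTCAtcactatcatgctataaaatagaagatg
Each window holds the motif once, 63 bases before the start in Mmp10 and 35 bases before it in Mmp13. The same letters occurred in 3.77% of the 7804 promoter windows (250 bases before to 50 after the start) of the 6044 tested genes with one in the RefSeq table. Among the genes called at least 2-fold higher the share was 4.21%, and among those at least 2-fold lower 3.64%. A match describes the letters only and shows no binding. The promoter of Mmp14, which fell, is not shown, and whether Fos had a part in the 2 rises was not tested.

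The AP-1 subunits did not move as 1 group. Fos stood at 43.8 and 67.6 at 0 h and 1906 and 1570 at 24 h, an increase of 4.34 ± 0.22 on the log2 scale (3.56 to 4.63 over the alternatives). Among the 8 AP-1 subunits tested, Atf3 rose from 151 and 165 to 829.8 and 895, Junb by 1.68 and Mafk by 1.03, whereas Fosl1, a Fos relative, fell from 593 and 575 to 286 and 292. The zinc finger factor Egr1, an immediate early gene like Fos, rose from 646 and 521 to 6998 and 6856 (11.4-fold). Klf2 and Klf10 rose too, by 1.80 and 0.83. Dusp2, a nuclear phosphatase that inactivates MAP kinases, rose from 206 and 143 to 1552 and 1285, and Dusp1, of the same family, by 1.29. In all, 10 of 23 tested immediate early and feedback genes were higher and 1 lower (median 0.43). Junb, Mafk, Klf2, Klf10 and Dusp1 are examples chosen after their values were seen.

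Other leading rises came from several kinds of gene. Txnip, which binds and inhibits thioredoxin and restrains glucose uptake, rose from 498 and 424 to 8209 and 9043 (4.14 ± 0.18). Plagl1, an imprinted zinc finger factor that restrains cell growth, went from 17.6 and 9 to 522 and 533 (2.47 to 4.23 over the alternatives). Ckb, the brain-type creatine kinase, rose from 288 and 228 to 3381 and 3067. The arrays of 0 h and 24 h did not overlap for any of these 3, which the rule for naming the largest rises required. Ramp3, which modifies the ligand choice of calcitonin-family receptors, rose from 223 and 172 to 2417 and 2000, and the mitochondrial aldehyde dehydrogenase Aldh2 from 9.8 and 28.6 to 432 and 497. Mogat2, an acyltransferase of fat absorption in the intestine, rose from 7 and 9.8 to 330.1 and 368, and the cornified envelope gene Lce1f from 26.9 and 18.4 to 566 and 517. Prtn3, a serine protease best known from neutrophils, went from 9 and 12.8 to 396 and 443. For Aldh2, Mogat2, Lce1f and Prtn3 the 0 h signals were below 32, and the log2 changes ran from 2.25 to 3.82, 2.05 to 3.90, 2.39 to 3.86 and 2.23 to 4.02 over the alternatives.

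The largest falls were led by chromatin and cell cycle genes. Hmgb2, a DNA-bending protein abundant in dividing cells, fell from 1962 and 1929 to 60.9 and 96.5, a log2 change of -4.18 ± 0.18 (adjusted p = 9.65e-07, limma). Fst, which encodes follistatin, the secreted antagonist of activin, fell from 2519 and 2882 to 140.5 and 226 (12.9-fold). Rbmx, a nuclear RNA-binding protein of the splicing machinery, fell from 813 and 637 to 58.2 and 83.6. The falls outside the cell cycle also included Serpinb9, an inhibitor of granzyme B, from 1457 and 1547 to 201 and 184, and Trim59, a TRIM-family protein, from 1675 and 1382 to 184 and 203. For all 5, both 24 h signals lay below both 0 h signals, which the rule for naming the largest falls required.

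**Figure D2:**
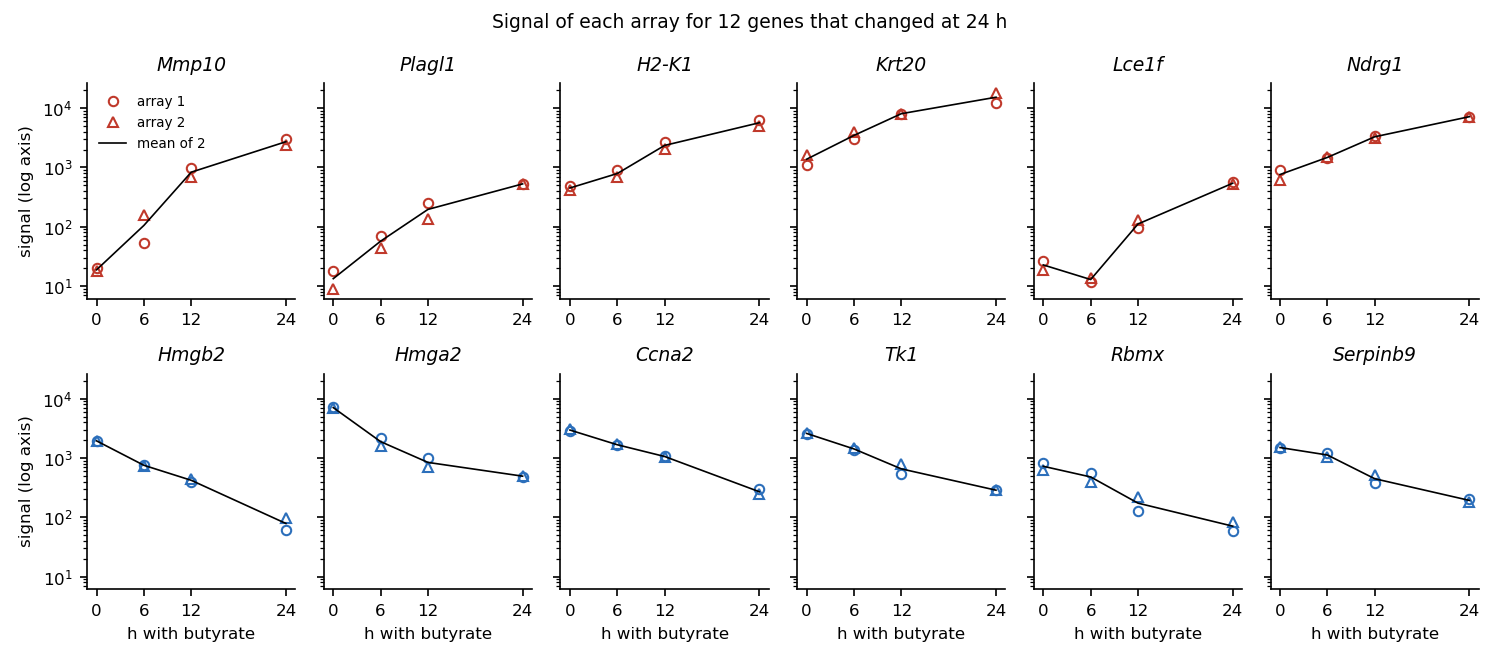
Signals of 12 genes in every array of the study, on a log axis, against hours with butyrate (circles array 1, triangles array 2, line the mean of 2); red genes were called higher and blue genes lower at 24 h. Mean signals of Mmp10 went from 18.8 at 0 h through 105 and 832 to 2715, and those of Hmgb2 from 1946 through 754 and 421 to 78.7; Lce1f stood at 12.8 at 6 h and reached 541 at 24 h.

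The start of the cell cycle is set by D-type cyclins and their kinases, which inactivate the retinoblastoma proteins, and by E2F factors, which then switch on the genes of S phase. Ccnd1, the main D-type cyclin, fell from 11900 and 10680 to 846 and 785 (-3.74 ± 0.15), and Ccnd2 from 3784 and 4921 to 2045 and 1941. Ccnd3, also a D-type cyclin, had 1007 and 789.9 at 0 h and 1285 and 999 at 24 h, which overlap, and was not called (log2 change 0.33, adjusted p = 0.155). Of 8 tested G1 cyclins and kinases, 7 were lower, with log2 changes of -1.33 for Cdk6, -1.12 for Cdk4 and -1.21 for Ccne1. E2f1 and its partner Tfdp1 had log2 changes of -1.37 and -1.30, and 4 of 6 E2F-family genes were lower, while E2f5 was higher (0.74). Cdk4, Ccne1 and E2f5 were named after their values were seen.

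The inhibitors of these kinases differed from each other. Cdkn1a, which encodes p21, had 3717 and 3876 at 0 h and 3677 and 4221 at 24 h, so the arrays overlap, and its log2 change of 0.05 has a 95% interval of -0.34 to 0.45. Cdkn1c, which encodes p57, rose from 30.8 and 81.8 to 389 and 277 (2.09 ± 0.26, 1.48 to 2.52 over the alternatives). Cdkn2a, which encodes p16 and p19Arf, rose from 668 and 712 to 1355 and 1273. Cdkn2b, which encodes p15, was at 1048 and 833 at 0 h and 1248 and 1290 at 24 h and missed the threshold (adjusted p = 0.0506), but passed it under 6 of the 13 alternatives, with 0.0367 under the replicate block, and Cdkn1b, which encodes p27, was at 294 and 303 at 0 h and 256 and 287 at 24 h (adjusted p = 0.543). The pocket protein gene Rb1 rose from 228 and 210.2 to 679 and 603, whereas its relative Rbl1, named after its value was seen, was lower by the fit (-1.05). Over the whole list of 24, 5 were higher and 12 lower; without 0 h array 2, 3 were higher.

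Of 62 tested DNA replication genes, 51 were lower and 0 higher, with a median log2 change of -1.05. Without a filter on low signals 46 of 64 were lower and 0 higher. The licensing and helicase genes, which load and fire the replicative helicase at origins, had 16 of 20 lower (median -1.45). Among them Cdc6, the loader of the helicase, fell from 231 and 276 to 15.3 and 14, signals so low at 24 h that the log2 change ranged over -3.13 to -1.62. Of the polymerases and fork proteins, 24 of 30 were lower (median -0.92), and Hells, a helicase that remodels chromatin, fell from 623 and 663 to 96.9 and 52 (-2.70 ± 0.23). Nucleotide supply had 11 of 12 lower, 7 without 0 h array 1, and its leading genes were Tk1, thymidine kinase, from 2525 and 2670 to 288 and 285, and Rrm2, the regulated subunit of ribonucleotide reductase, from 3974 and 5635 to 662 and 715. In contrast, Rrm2b, the subunit that p53 induces, was higher by 0.63 (named after its value was seen).

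Of 89 tested mitotic genes, 73 were lower and 1 higher, with a median log2 change of -1.58. All 22 kinesin and spindle genes and all 17 centromere and kinetochore genes of the list that passed the filter were lower, with medians of -1.91 and -1.72. Zwint, a kinetochore gene not on the list and named after its values were seen, was called higher with the probe set used. Other probe sets of Zwint were called lower (log2 changes of -0.63 and -0.47). Of 18 mitotic cyclins and kinases, 15 were lower: Ccna2, the cyclin of S phase and mitotic entry, fell from 2891 and 3032 to 296 and 244, the kinase gene Pbk from 1945 and 1636 to 208 and 175, and Aurkb, the kinase of the chromosomal passenger complex, from 644 and 992 to 102 and 82. The kinesin Kif20a, needed for cytokinesis, fell from 1068 and 1053 to 118 and 124, the centromeric histone Cenpa from 1814 and 2066 to 262 and 240.3, and Cdc20, an activator of the anaphase promoting complex, from 2185 and 2393 to 376 and 227. Condensin and cohesin genes had 10 of 13 lower. Subunits and factors of the anaphase promoting complex were the mixed group, with 9 of 19 lower, 5 without 24 h array 2, and a median of -0.48. The 1 mitotic gene of the list that rose was Pttg1, the securin that holds separase inactive until anaphase, from 3146 and 2544 to 6186 and 5044. Of the 89 members, 18 had both 24 h signals below the level that the filter used, so they could pass only through earlier times, and without a filter 69 of 90 were lower and 1 higher.

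Genes of mitosis share promoter elements, a CCAAT box that binds NF-Y and a CHR element that binds the DREAM and MuvB complexes, and S phase genes share E2F sites. Promoters of 4 of the largest falls that hold both CCAAT and CHR letters are shown, with 150 bases upstream of the RefSeq start (GRCm38.p6) and both motifs in capitals on either strand (CCAAT, and TTTGAA or TTCGAA). Hmgb2 is at chr8:57511693-57511842 (plus strand), Cdc20 at chr4:118437344-118437493 (minus strand), Rbmx at chrX:57393037-57393186 (minus strand) and Trim59 at chr3:69044743-69044892 (minus strand).
Hmgb2: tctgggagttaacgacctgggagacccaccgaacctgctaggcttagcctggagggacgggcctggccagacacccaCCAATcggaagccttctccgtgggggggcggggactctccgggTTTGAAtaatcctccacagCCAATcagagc
Cdc20: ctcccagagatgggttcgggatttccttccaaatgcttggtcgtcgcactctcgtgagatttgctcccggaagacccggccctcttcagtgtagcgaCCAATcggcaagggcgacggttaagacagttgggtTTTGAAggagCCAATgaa
Rbmx: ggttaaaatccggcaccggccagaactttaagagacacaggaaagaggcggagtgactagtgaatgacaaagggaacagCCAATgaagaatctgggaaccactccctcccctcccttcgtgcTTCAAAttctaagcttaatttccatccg
Trim59: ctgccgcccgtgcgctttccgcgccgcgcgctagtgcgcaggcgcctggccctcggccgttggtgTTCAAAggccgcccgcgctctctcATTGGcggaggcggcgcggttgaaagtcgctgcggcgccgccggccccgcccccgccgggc
In Hmgb2 the CHR letters begin 30 bases before the start between CCAAT boxes at 73 and 11 bases, in Cdc20 they begin 18 bases before it between boxes at 53 and 8, and in Rbmx 28 bases before it with a box at 71. In Trim59 they begin 85 bases before the start, with a box at 61. Of the 79 promoter windows of tested mitotic genes, 57% held the CHR letters and 60.8% a CCAAT box, against 13.2% and 37.6% of all 7804 windows. Of the 66 windows of replication genes, 48.5% held an E2F motif (TTCCCGC or TTGGCGC), against 12.9% of all. Over all genes at least 2-fold lower, 21.5% of windows held CHR letters and 17.4% E2F letters, and over those at least 2-fold higher 9.83% and 9.55%. A CCAAT box was in 38.5% of the windows of the former and 42.1% of those of the latter. These shares describe letters in the windows, and the lists were not chosen by them.

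Genes of homologous recombination, other DNA repair and the replication checkpoint had 18 of 23 lower and 1 higher (median -0.76). With the stricter filter on low signals, 11 were lower. Of the 23, 6 had both 24 h signals below the filter level, and without the filter 15 of 25 were lower. Exo1, a nuclease that resects DNA ends, fell from 356 and 336 to 79 and 50.4, although its second probe set gave a smaller change (the range was -2.20 to -1.20). Chek1, the checkpoint kinase that answers stalled forks, fell from 499 and 449.7 to 149.8 and 93.7, and Usp1, which removes ubiquitin from PCNA, from 1832 and 1416 to 500 and 474. The member that was higher, Xrcc6, encodes the Ku70 end-binding protein (log2 change 0.66), and its call was lost without 0 h array 1 (adjusted p = 0.158) or 24 h array 2 (0.122), or with no filter (0.0592). Nbn, of the break-sensing MRN complex, was lower (-1.70), but its 24 h signals were 57 and 9.1, and the call was lost without 0 h array 2 (adjusted p = 0.0577) or 24 h array 2 (0.0861).

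High mobility group proteins bend DNA and open chromatin, and 3 of the 8 tested were lower and 1 higher. Besides Hmgb2, Hmga2, an architectural protein of fetal tissues, fell from 7206 and 6965 to 482 and 506 (-3.76 ± 0.21, and -2.90 by its second probe set), and Hmgb3 fell from 2321 and 2883 to 450.2 and 349. Hmg20b, a subunit of a REST corepressor complex, rose from 281 and 241 to 438 and 486. The other 4 tested were not called.

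Histone deacetylases are what butyrate inhibits, and their own transcripts moved in different directions. Hdac1 rose from 907 and 876 to 1845 and 1810 (1.01 ± 0.18). Hdac2 was at 508 and 548 at 0 h and 383 and 384 at 24 h, a log2 change of -0.43 that passed the test (adjusted p = 0.0397) but not with quantile normalization (0.0533), with no filter (0.0867), with only the 4 arrays compared (0.0529) or without any 1 of the 4 arrays (0.0847 to 0.16). Hdac3, at 1144 and 1246 at 0 h and 1444 and 1743 at 24 h, was not called (adjusted p = 0.0817), although it was with the replicate block (0.0333). In class II, Hdac5 rose from 307 and 188 to 704 and 581 and Hdac7 fell from 806 and 959.5 to 198 and 244 (3.62-fold). Both tested sirtuins, the NAD-dependent deacetylases Sirt2 and Sirt7, were higher, Sirt2 from 508 and 623 to 1154 and 1436. Without the filter 2 of 4 sirtuins were higher and 1 lower. Of the corepressor subunits that hold these enzymes, 5 of 13 were lower, led by Mbd3 of the NuRD complex, from 537 and 704 to 87.6 and 114, and Mta1 (-0.83); without 0 h array 2 the count was 2, and without either 24 h array 3. In all 4 of 22 genes of this list were higher and 7 lower, the latter 3 without 0 h array 2 and 4 without either 24 h array.

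Acetyltransferases and bromodomain proteins, which write and read histone acetylation, had 12 of 22 lower and 0 higher (median -0.64, and 10 of 24 lower and 0 higher without the filter). Kat2b, the acetyltransferase PCAF, fell from 1063 and 852 to 409.8 and 374, Baz1b, a bromodomain subunit of chromatin remodellers, from 2143 and 1541 to 712 and 701, and Trim28, a corepressor of zinc finger proteins, from 3477 and 2473 to 1457 and 1087. Brd8 was lower by -1.09 with its main probe set and was not called with the second (adjusted p = 0.345), without 0 h array 1 (0.128), without 24 h array 2 (0.159) or with no filter (0.0688). Of the Polycomb and DNA methylation genes 7 of 24 were lower and 2 higher. Bmi1, of Polycomb repressive complex 1, fell from 1864 and 1419 to 419 and 334, and the 2 alternative methyltransferases of complex 2 moved apart, with Ezh2 lower, from 1041 and 1103 to 579 and 418, and Ezh1 higher, from 249 and 227 to 479 and 533. Uhrf1, which guides DNA methylation to newly copied DNA, fell from 571 and 751 to 269 and 315.

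All 9 tested genes of the linker and variant histone list, which also holds the histone message binder Slbp, were called, 4 higher and 5 lower. The linker histone H1f2 rose from 1552 and 1589 to 5051 and 5415 and H1f10 from 153 and 88 to 495 and 482. Macroh2a2 fell from 252 and 275 to 52.7 and 16.7, H2ax, the variant phosphorylated at DNA breaks, from 1510 and 1593 to 550.5 and 525, and H2az1 from 11180 and 13990 to 5115 and 6339. Slbp, which binds the stem-loop of replication-dependent histone messages, fell from 1697 and 1614 to 758 and 624. H1f0, the linker histone of resting cells, had no probe set of its own.

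**Figure D3:**
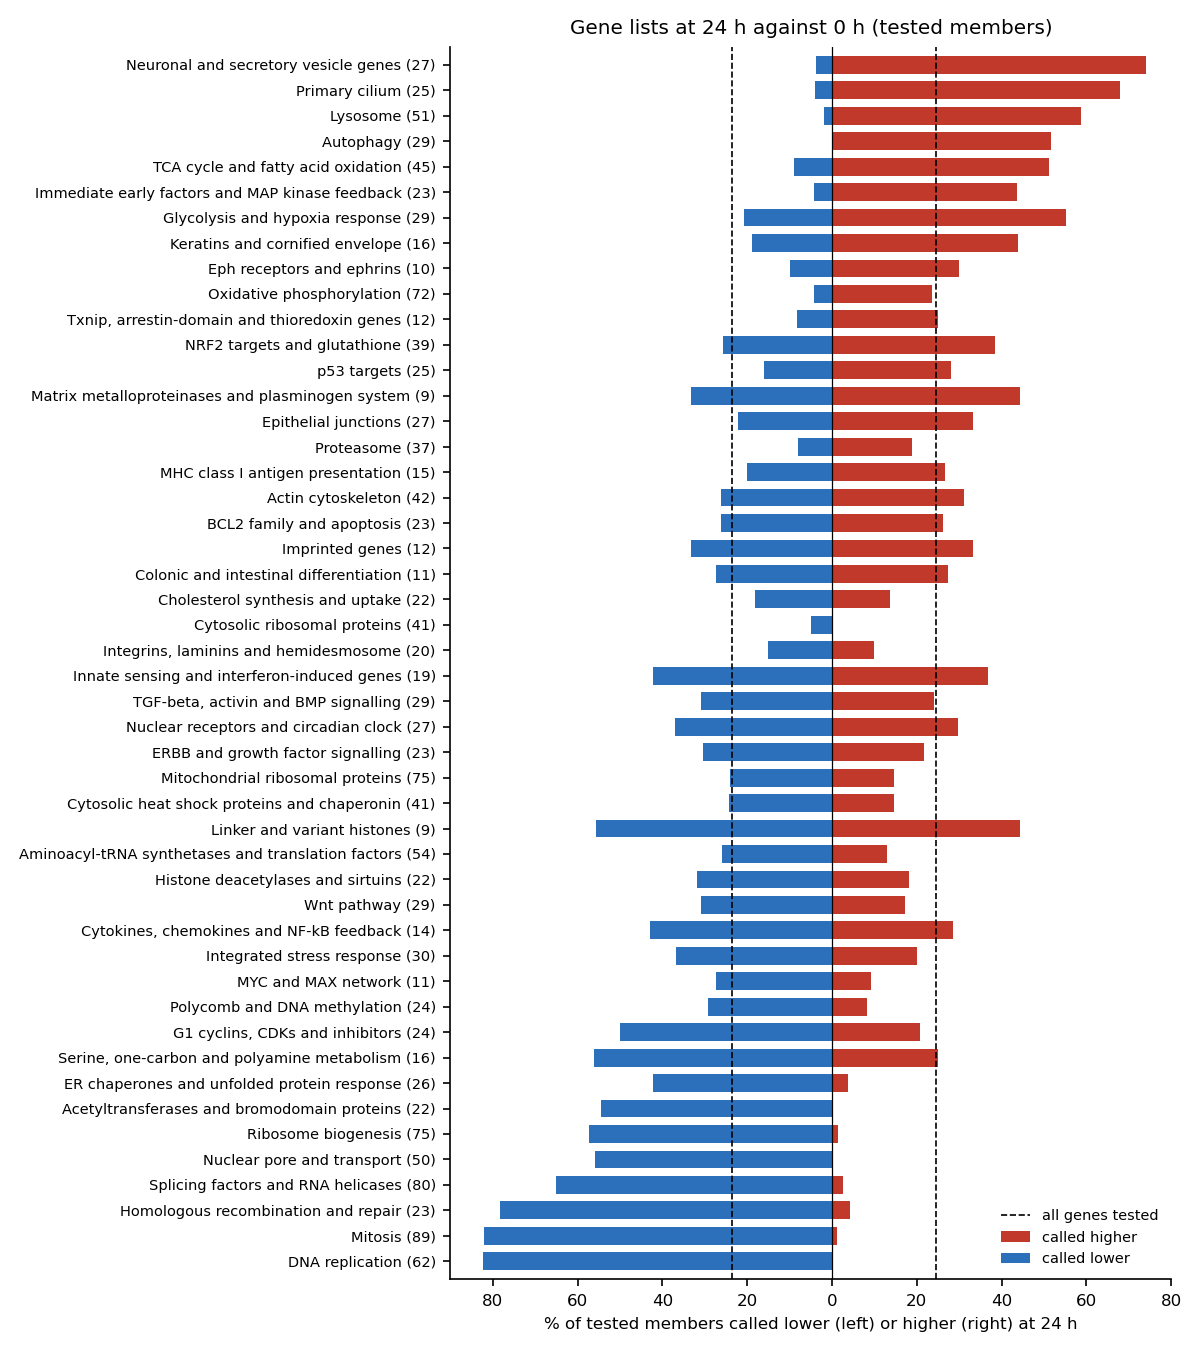
For each gene list with at least 9 tested members (number in brackets), the bar to the right is the percentage of tested members called higher at 24 h and the bar to the left the percentage called lower; dashed lines mark 24.6% and 23.5%, the shares of all 7340 genes. DNA replication, mitosis, repair and splicing have the longest bars to the left (82.3%, 82%, 78.3% and 65%), and the neuronal, primary cilium and lysosome lists the longest to the right (74.1%, 68% and 58.8%).

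Genes of ribosome assembly were widely lower, while few genes of the ribosomal proteins were called. Of 59 processing and assembly factors of the nucleolus, 38 were lower and 1 higher (median -0.75). The box C/D core protein Nop56 fell from 3021 and 2963 to 504 and 655 (-2.32 ± 0.17), Grwd1 from 663 and 767 to 120.4 and 131, Utp20, of the small subunit processome, from 979.6 and 900.4 to 185 and 224, and Rrp15 from 829.6 and 840.5 to 216 and 178. RNA polymerases I and III had 5 of 16 lower, 3 without 24 h array 1 or with second probe sets. In contrast, of 41 tested cytosolic ribosomal protein genes 2 were lower and 0 higher, and the median was 0.09. Those 2 were Rpl12 (-0.77) and Rps25 (-0.52), and the call of Rps25 was lost with no filter (0.076) and without any 1 of the 4 arrays (adjusted p = 0.0544 to 0.14). Many ribosomal protein genes have near-identical pseudogenes, probe sets with several genes were left unnamed, and 42 of the 77 listed genes had a probe set of their own.

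The mitochondrial ribosome showed no common direction, with 11 of 75 higher and 18 lower and a median of -0.14. These counts were also fragile: without 0 h array 1 they were 4 and 9, without 24 h array 2 the higher ones were 5, without 0 h array 2 the lower ones were 10 and without 24 h array 1 they were 9. With no filter they were 6 and 9. Mrps12 rose from 888 and 939 to 1707 and 1896 and Mrps28 fell from 1420 and 1649 to 636 and 789, both parts of the small subunit. Translation factors and aminoacyl-tRNA synthetases had 7 of 54 higher and 14 lower (median -0.15), 3 higher without 0 h array 1, without 24 h array 2 or with no filter and 9 lower without 0 h array 2. The arginyl-tRNA synthetase Rars rose from 2413 and 2494 to 4851 and 4602, whereas the initiation factor Eif5 fell from 7173 and 5900 to 3036 and 2167 and the valyl-tRNA synthetase Vars from 1142 and 1065 to 465 and 514.

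RNA splicing genes were widely lower, 52 of 80 against 2 higher, with a median of -0.67. Among the hnRNP and SR proteins, which choose splice sites, 36 of 49 were lower and 0 higher; without the filter the whole list had 38 of 80 lower and 2 higher. Besides Rbmx, Sfpq, a paraspeckle and splicing protein, fell from 1411 and 1210 to 386 and 273. Core spliceosome genes had 16 of 31 lower, 9 without 0 h array 1 and 10 with no filter, led by the Sm-like ring proteins Lsm2, from 866 and 812 to 118 and 188, and Lsm3, from 1214 and 1569 to 272 and 398. Another member of that ring, Lsm7, was higher (0.61), a call lost without 0 h array 2 (adjusted p = 0.0659), and the tri-snRNP protein Prpf6 rose from 1548 and 1419 to 2755 and 2506. The epithelial splicing factors Esrp1 and Esrp2 were both lower (-0.74 and -1.01; named after their values were seen).

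Of 50 nuclear pore and transport genes, 28 were lower and 0 higher (median -0.64, and 25 of 50 lower and 0 higher without the filter). Nup85, of the scaffold ring, fell from 991 and 950.2 to 191 and 274, and Nup62, of the central channel, from 1699 and 1314 to 486 and 432. Rcc1, which charges Ran with GTP on chromatin, fell from 359 and 274 to 55.9 and 97.3, and Cse1l, which exports importin alpha, from 2987 and 2596 to 882 and 943. Nucleoporins had 15 of 24 lower and transport receptors 13 of 26.

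Protein folding and turnover gave smaller and mixed changes. Of 37 proteasome genes, 7 were higher and 3 lower, and the higher ones numbered 1 without 0 h array 1 or with no filter, 2 without 0 h array 2 or 24 h array 2 and 3 without 24 h array 1. Hspb1, the small heat shock protein Hsp27, rose from 519.7 and 590.5 to 3092 and 2442 (2.25 ± 0.17), and Hspa2, an Hsp70 relative, from 205 and 216 to 649.5 and 645, while Cryab, another small heat shock protein, fell from 2525 and 2282 to 1193 and 1088. Altogether 6 of 41 cytosolic chaperones were higher and 10 lower, 3 higher without 0 h array 2 or with no filter. In the endoplasmic reticulum, 11 of 26 chaperone and unfolded protein response genes were lower and 1 higher, and the lower ones numbered 6 without either 24 h array and 7 without either 0 h array. Xbp1, the factor spliced by IRE1 in the unfolded protein response, fell from 2562 and 1918 to 911 and 667, and Hsp90b1, the chaperone Grp94, from 2497 and 2688 to 1271 and 1176. The sensor gene Atf6 rose, from 301 and 356 to 667 and 684.

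The integrated stress response, in which phosphorylated eIF2 favours translation of the factor Atf4, had calls in both directions among its factors, 3 of 13 higher and 2 lower (median 0.02). Ddit3, which encodes the factor CHOP, rose from 310 and 447 to 4393 and 5523 (12.2-fold), and Atf3 and Cebpb, the latter named after its value was seen, rose as well (2.23 and 0.93). Nupr1, a stress-induced chromatin protein, fell from 1618 and 1623 to 361 and 353. Of the 17 tested targets 9 were lower and 3 higher, with Pck2, the mitochondrial phosphoenolpyruvate carboxykinase, lower, from 1034 and 723 to 365 and 353. The whole list had 6 of 30 higher and 11 lower. Promoters of 1 gene that rose and 1 that fell are shown, since both hold the C/EBP-ATF composite letters (GATGCAA, either strand, in capitals), which bind dimers of Atf4 or CHOP with C/EBP proteins. They are the 150 bases upstream of the RefSeq starts (GRCm38.p6) of Atf3, at chr1:191183334-191183483 (minus strand), and Nupr1, at chr7:126625471-126625620 (minus strand).
Atf3: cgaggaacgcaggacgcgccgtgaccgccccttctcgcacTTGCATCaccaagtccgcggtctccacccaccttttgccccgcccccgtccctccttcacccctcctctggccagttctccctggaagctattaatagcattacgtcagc
Nupr1: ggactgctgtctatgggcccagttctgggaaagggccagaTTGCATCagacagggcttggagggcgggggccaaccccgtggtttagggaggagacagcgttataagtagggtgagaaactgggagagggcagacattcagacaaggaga
In both, the letters begin 110 bases before the start. They were present in 4 of 31 promoter windows of tested members of the list (12.9%), against 1.73% of all windows.

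Serine and one-carbon metabolism, which supplies carbon units for nucleotide synthesis, had 7 of 9 members lower and 0 higher. Without the filter 7 of 13 were lower and 1 higher. Shmt2 and Shmt1, the mitochondrial and cytosolic serine hydroxymethyltransferases, fell from 1979 and 1570 to 539 and 555 and from 572 and 635 to 185 and 180.5. Mthfd1 and Mthfd2, the folate dehydrogenases, fell by log2 changes of -1.23 and -1.12. The second probe set of Shmt2 gave -0.97. Polyamine genes went both ways: Srm, spermidine synthase, fell from 1386 and 1633 to 379 and 414, and Sat1, the acetyltransferase that starts polyamine breakdown, rose from 2883 and 2905 to 9306 and 9973. The antizyme inhibitor Azin1 rose by 0.95. Polyamine members counted 4 higher and 2 lower of 7, and 2 higher without any 1 of the 4 arrays.

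Lysosomal genes were higher in 30 of 51 cases and lower in 1, with a median log2 change of 0.65. Of 26 lysosomal enzymes, 17 were higher and 0 lower, among them Arsa, arylsulfatase A, from 148 and 151 to 424 and 416. The membrane subunit Atp6v0d1 of the proton pump that acidifies lysosomes rose from 1562 and 1481 to 4608 and 4433, and 7 of 14 pump subunits were higher, 4 without 0 h array 2. Atp6v1e1 rose from 2166 and 2058 to 4992 and 5173 with the probe set used, but its second probe set gave -0.25 and was not called (adjusted p = 0.608). Cd68, a lysosomal membrane protein that is also a macrophage marker, rose from 424 and 425 to 1041 and 1119. Another immune marker, Csf1r, was lower at 24 h, the summed signal of 7 immune markers was 1508 and 1172 at 0 h and 1546 and 1528 at 24 h, and their part in the lysosomal result was not tested. The 1 lower member was Scarb2, a receptor that delivers glucocerebrosidase (-0.80), a call lost without 0 h array 1 (adjusted p = 0.068) and with its second probe set (0.135). Without the filter 25 of 55 lysosomal genes were higher and 2 lower, where all genes gave 13.5% and 11.1%. The E-box letters CACGTG, the core of the site that TFEB binds in lysosomal gene promoters, were in 34% of 47 windows of tested lysosomal genes and in 10.5% of all windows. They were also in 20.3% of the windows of ribosome biogenesis genes, in 8.71% of those of genes at least 2-fold higher and in 9.99% of those of genes at least 2-fold lower.

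Autophagy genes, which build the vesicles that deliver cargo to lysosomes, were higher in 15 of 29 cases and lower in 0 (median 0.56, and 14 of 31 higher and 0 lower without the filter). Atg12, a ubiquitin-like protein of vesicle growth, rose from 749 and 430.1 to 2556 and 1787, and Gabarapl2 and Map1lc3a, of the family attached to the vesicle membrane, from 1755 and 1740 to 5556 and 5728 and from 572 and 653 to 1521 and 1637. Bnip3, a receptor for removal of mitochondria, rose from 360.2 and 276 to 1408 and 1347 (4.05-fold).

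**Figure D4:**
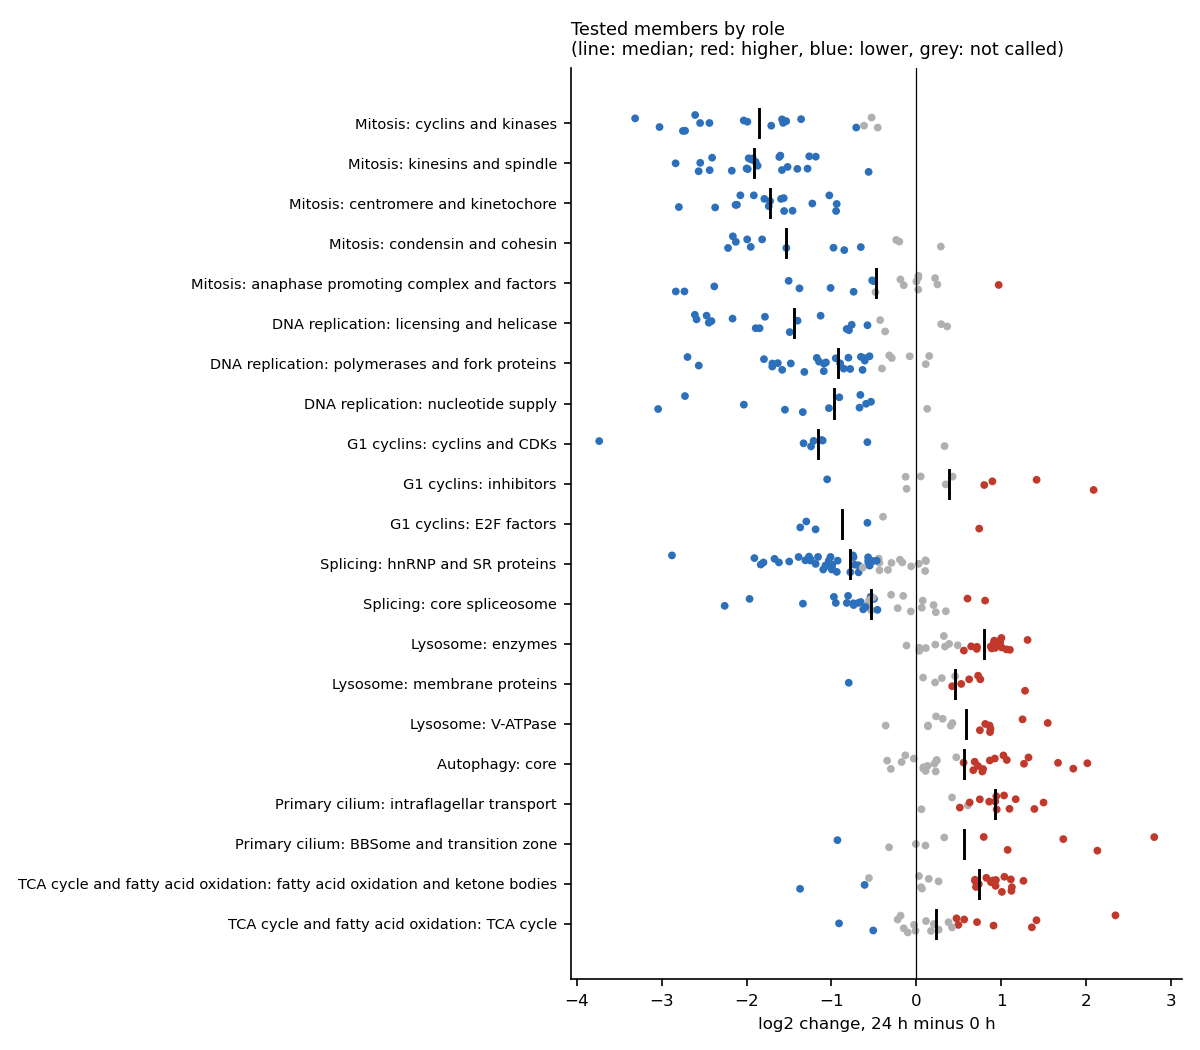
Log2 change from 0 h to 24 h of every tested member of selected lists, 1 row for each role, with red points called higher, blue points called lower, grey points not called and a black line at the median. The medians of the mitotic rows lie between -1.91 and -0.48, that of intraflagellar transport is 0.93 and that of fatty acid oxidation 0.74.

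Fatty acid oxidation and ketone body genes, which handle butyrate itself in colonocytes, were higher in 15 of 23 cases and lower in 2 (median 0.74). Hadhb, of the mitochondrial trifunctional protein, rose from 2011 and 1473 to 4633 and 3775, and Acads, the short-chain acyl-CoA dehydrogenase that takes butyryl-CoA, from 722 and 849 to 1305 and 1352, a call lost without 0 h array 1 (adjusted p = 0.0567). Cpt1a, which gates entry of long-chain fatty acids into mitochondria, rose by 1.13 (named after its value was seen). Eci1, an enoyl-CoA isomerase, fell from 1232 and 1378 to 462 and 508. In the TCA cycle group 8 of 22 were higher and 2 lower, and between 4 and 5 were higher without 0 h array 1, 0 h array 2 or 24 h array 2 or with no filter. Pcx, pyruvate carboxylase, rose from 106 and 76.3 to 533 and 657, and the kinases Pdk1 and Pdk2, which shut pyruvate dehydrogenase, from 263 and 202 to 717 and 625 and from 64.5 and 66 to 227 and 209.8. Of oxidative phosphorylation genes, 17 of 72 were higher (23.6%, near the share of all genes) and 3 lower (median 0.16), with 7 higher without 24 h array 2 and 10 without 0 h array 1.

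Of the genes for butyrate transport, sensing and activation, 5 of 17 listed passed the filter. The acyl-CoA synthetase Acss2 rose from 242 and 276 to 1123 and 1264, the efflux pump Abcg2 from 184 and 256 to 960.5 and 587, and Bsg, the chaperone of monocarboxylate transporters, from 2736 and 3284 to 6584 and 7428. The transporter Slc16a1 itself was at 3443 and 3349 at 0 h and 3146 and 2938 at 24 h, a log2 change of -0.16 with a 95% interval of -0.50 to 0.19 (adjusted p = 0.435, limma).

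Glycolysis and hypoxia genes had 16 of 29 higher and 6 lower, 3 lower without 24 h array 2 or with no filter, and isoforms moved apart within single steps. Of the phosphofructokinases, Pfkp, the platelet form, rose from 67 and 53 to 684 and 687 and Pfkm, the muscle form, by 1.08, while Pfkl, the liver form, fell from 1108 and 1205 to 593 and 589. Hexokinase Hk1 was higher (0.81) and Hk2 lower, from 1822 and 1732 to 699 and 759.5. Lactate dehydrogenase Ldhb was higher (0.50) and Ldha lower (-0.52). Ndrg1, a gene induced by hypoxia and in differentiation, rose from 915 and 605 to 7198 and 7163, and Egln3, a prolyl hydroxylase of HIF, from 7.5 and 36.3 to 183 and 173 (1.20 to 2.47 over the alternatives). Of the 29 tested genes, 5 had both 0 h signals below the filter level and could pass only through later times. Without the filter 14 of 33 were higher. The hypoxia genes alone had 7 of 13 higher, and 4 of 10 with the stricter filter. Pfkm, Hk1, Ldhb and Ldha were named after their values were seen. Arrdc4 and Mlxipl, which together with Txnip belong to the glucose-sensing network, were higher too, Arrdc4 from 293 and 294 to 957 and 768.

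Redox and detoxification genes split by family. Of 13 glutathione transferases, 8 were higher and 2 lower, 5 higher with the stricter filter, with Gstk1 higher (1.57) and Gsta3 lower, from 805 and 964 to 213 and 203. The metallothioneins Mt1 and Mt2, which bind zinc and copper, rose from 2550 and 1738 to 7398 and 8533 and from 892 and 619 to 2615 and 2006. Among 22 genes of NRF2 and glutathione synthesis 4 were higher and 8 lower: Gclm, the modifier subunit of the first enzyme of glutathione synthesis, fell from 2225 and 1949 to 647 and 589, and Gss, the last enzyme of that path, rose from 286 and 296 to 932 and 804. In cholesterol metabolism 3 of 22 were higher and 4 lower, 7 lower with the replicate block, and Stard4, a sterol carrier, fell from 1357 and 1446 to 492 and 511 while Srebf1 rose from 1430 and 1487 to 3196 and 3003.

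Markers of the mature colonocyte were mixed. Krt20, the keratin of surface epithelium, rose from 1119 and 1634 to 12430 and 18160 (3.44 ± 0.24), and Elf3, an epithelial ETS factor, from 440.4 and 525 to 1366 and 1414. The forkhead factors Foxa1 and Foxa2 fell, from 705 and 346 to 133 and 127 and from 350.4 and 318 to 164 and 113. Cdx2, the factor of intestinal identity, was at 512 and 458 at 0 h and 284 and 284 at 24 h and was called lower (-0.71), a call lost without 0 h array 1 (adjusted p = 0.0859), 24 h array 1 (0.0578) or 24 h array 2 (0.0567), or with no filter (0.0505). Klf4, a factor of goblet and surface cells, was at 538 and 655 at 0 h and 822 and 795 at 24 h and was not called (adjusted p = 0.079). The alkaline phosphatase gene Alpl did not pass the filter, with 48.9 and 30.4 at 0 h and 8.9 and 66.8 at 24 h, and neither did Vil1 or Muc1. Another alkaline phosphatase gene, the colonocyte marker Alpi, had no probe set of its own and was not measured here. Of 45 listed differentiation genes 36 were on the array, 11 were tested, 3 were higher and 3 lower.

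Keratins and cornified envelope genes were mixed, with 7 of 16 higher, 4 without 0 h array 1 or with no filter, and 3 lower. The higher ones were 3 of 5 keratins of simple epithelium, 1 of 2 keratins of stratified epithelium and 3 of 9 envelope genes, which also held the 3 lower ones. Sprr2h rose from 246 and 306 to 829 and 812 and the basal keratin Krt5 from 97.4 and 164 to 319 and 319, whereas loricrin, Lor, fell from 684 and 733 to 266 and 236 and the crosslinking enzyme Tgm1 from 879.9 and 1118 to 386 and 421. Among junction genes 9 of 27 were higher and 6 lower, with 4 higher without 24 h array 2, and 3, 1 and 2 lower without 0 h array 1, 0 h array 2 and 24 h array 1. The desmosomal plakophilin Pkp1 rose from 96.2 and 180.3 to 647 and 670.3 and the tight junction claudin Cldn4 from 7532 and 8964 to 13560 and 14560, while the gap junction connexin Gja1 fell from 2300 and 2494 to 1035 and 1079. E-cadherin, Cdh1, was at 1064 and 1236 at 0 h and 1742 and 1547 at 24 h (log2 change 0.51, adjusted p = 0.0438, limma). That call was lost with no filter (0.106) and without any 1 of the 4 arrays (log2 changes of 0.40 to 0.61). It was also lost in the fit on second probe sets (0.0503). There Cdh1 kept the same probe set, as no other one of this gene passed the filter. The claudin Cldn3 was lower by -0.97, which was not called without 0 h array 2 (adjusted p = 0.0577) or 24 h array 1 (0.0686).

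Matrix contacts changed at few genes. Of 20 integrins, laminins and hemidesmosome genes, 2 were higher and 3 lower. The epithelial integrin Itgb6, which activates TGF-beta, fell from 207 and 273 to 28.5 and 12.9 (-2.37 ± 0.19), although its second probe set gave -1.23, and Cd151, a tetraspanin that holds laminin-binding integrins, from 2994 and 3394 to 1632 and 1621. The laminin chain Lamc1 rose from 487 and 473 to 1095 and 870.5. The actin cytoskeleton had 13 of 42 higher and 11 lower, the latter 7 without 0 h array 1. The part of the smooth muscle markers, of which Cnn1 rose, in this result was not tested. Tropomyosin Tpm1, which stabilises actin filaments, fell from 6230 and 5948 to 1161 and 1064, and the focal adhesion protein Lasp1 from 5560 and 6376 to 1857 and 2512. Vinculin, Vcl, rose from 2901 and 2600 to 5695 and 6512 and the class I myosin Myo1d from 1528 and 1607 to 3783 and 3319. Cotl1, an actin-binding relative of cofilin, rose from 19.4 and 45.7 to 417 and 673, a log2 change of 3.15 against 1.20 by its second probe set. Gelsolin, Gsn, was at 4516 and 6674 at 0 h and 13740 and 9694 at 24 h, with a log2 change of 1.07 ± 0.26, and was not called without 0 h array 1 (adjusted p = 0.0684) or 24 h array 1 (0.0605).

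The 4 tested heavy chain and B2m genes of MHC class I, which shows peptides to T cells, were all higher. Both 0 h signals of B2m lay below the filter level, so it could pass only through later times. Without the filter 4 of 7 were higher and 0 lower. B2m, the light chain shared by all class I molecules, rose from 119.6 and 119.9 to 1438 and 1027 (3.04 ± 0.19), and the heavy chains H2-K1 and H2-D1 from 485 and 416 to 6276 and 5063 and from 833 and 1350 to 7861 and 5609. Class I heavy chains are near-identical in sequence, so signal from 1 in the probes of another cannot be set apart, and the second probe set of H2-K1 gave a log2 change of 2.33. Of 4 peptide-loading genes 1 was lower and 0 higher, or 1 higher at an unadjusted p under 0.05: Pdia3, a chaperone of loading, went from 6592 and 7350 to 3136 and 3739. Of 3 immunoproteasome genes 2 were lower, with Psmb10 going from 285 and 309 to 106 and 158. Of the 4 regulators tested, 0 were called in either direction. Without the filter 1 of 8 peptide-loading genes was higher and 2 lower, and 1 of 5 immunoproteasome genes was higher and 2 lower.

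The 6 tested innate sensing genes were lower, but 3 of them had both 24 h signals below the filter level and could pass only through earlier times, so this count is no support by itself. Without the filter 4 of 10 were lower and 1 higher, and with the stricter filter 2 were tested and both were lower. The lower ones included Cd14, the lipopolysaccharide co-receptor, from 817 and 722 to 162 and 115, and Tlr3, a receptor for double-stranded RNA, from 594 and 382 to 97.6 and 62.3. Interferon-induced genes went both ways, with 7 of 13 higher and 2 lower, and 4 higher without 0 h array 2 or 24 h array 1 and 1 with the stricter filter. Of these 13, 3 had both 0 h signals and 2 both 24 h signals below the filter level, so they could pass only through other times. Without the filter 6 of 25 interferon-induced genes were higher and 2 lower. Ifitm3, a membrane protein that blocks virus entry, rose from 56.3 and 47.8 to 249 and 225 and Usp18, which removes ISG15, from 79.4 and 73.9 to 258 and 265. Ifit2 and Ifit3, which bind viral RNA, fell from 439.6 and 354 to 108 and 88.4 and from 294 and 387 to 75.9 and 142. Of 9 tested cytokine and chemokine ligands, 3 were higher and 5 lower. Of the 9, 5 had both 24 h signals and 2 both 0 h signals below the filter level, so the filter largely sets these counts, and without it 3 of 25 were higher and 4 lower. Ccl20, which attracts CCR6-bearing lymphocytes, rose from 63.8 and 95.4 to 497 and 473, and the alarmin Il33 fell from 259 and 223 to 62.9 and 98.7 and the cytokine Lif from 275 and 261 to 78.5 and 122. Csf1 was lower by -0.97 with its main probe set, but its second gave 0.019 and was not called (adjusted p = 0.969). Nfkbiz, a nuclear partner of NF-kB, rose from 218 and 257 to 917 and 918.

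In TGF-beta, activin and BMP signalling, 7 of 29 were higher and 9 lower, with calls among ligands, antagonists and receptors alike. Without the filter 10 of 44 were higher and 6 lower, so the balance of directions depends on the filter. While Fst fell, its relative Fstl3, another activin antagonist, rose by 2.05 (named after its value was seen), and the ligand Bmp4 rose from 53.3 and 33.2 to 296 and 317. The receptor Tgfbr2 fell from 4336 and 3662 to 1573 and 1311 and the signal carrier Smad1 from 539 and 448 to 205 and 211. Ccn1, a matricellular protein, rose from 1013 and 961 to 5660 and 6550. In the Wnt pathway 5 of 29 were higher, 3 with the stricter filter, and 9 lower, with the ligands Wnt7a and Wnt10a lower, from 1157 and 1224 to 405 and 610.1 and from 838 and 849.7 to 387 and 369, and Ephb3, a receptor that positions crypt cells, higher, from 275 and 195 to 551 and 603. The ephrin Efna3 rose from 129 and 155 to 756 and 752, and Efna1 fell from 286 and 325 to 135 and 141. Myc, a Wnt target that drives growth genes, fell from 1077 and 1134 to 512 and 506, while Mxi1, an antagonist of Myc, rose from 832 and 560.5 to 2215 and 1844. Among growth factor genes 5 of 23 were higher and 7 lower (2 and 4 with the stricter filter), with the imprinted pair Igf2 and Igf2r higher, Igf2 from 96.5 and 85.8 to 297 and 251 and Igf2r from 628 and 722 to 1456 and 1883.

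Apoptosis genes moved in both directions, 6 of 23 higher and 6 lower. Bcl2l11, which encodes the killer protein Bim, rose from 828 and 622 to 3715 and 2285, and Bok, another member of that family, fell from 1474 and 1481 to 248 and 321 (4.8-fold). The initiator caspase gene Casp8 fell from 828 and 757 to 341 and 262. Of p53 targets 7 of 25 were higher and 4 lower, with Gadd45a, a stress sensor, at 250.1 and 208 at 0 h and 536 and 542 at 24 h, and Zmat3 lower, from 3118 and 2707 to 1233 and 949; the shares were 28% and 16%. Nuclear receptors had 3 of 17 higher and 8 lower, 4 lower without 0 h array 1, without 24 h array 2 or with second probe sets, 5 without 0 h array 2 or with no filter, and 3 with the stricter filter. Of the 17, 4 had both 24 h signals and 3 both 0 h signals below the filter level, and without the filter 5 of 29 were higher and 5 lower. The orphan receptor Nr4a1, an immediate early gene, rose from 491 and 506 to 2876 and 2784, and the retinoic acid receptor Rarg fell from 527 and 506 to 226 and 214. The clock-linked deubiquitinase Usp2 rose from 35.1 and 18.8 to 497 and 235.

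Primary cilium genes were higher in 17 of 25 cases and lower in 1, with a median of 0.86. The primary cilium is a sensory antenna that cells build when they leave the cell cycle, and intraflagellar transport carries its building blocks. Of 15 transport genes tested, 12 were higher and 0 lower: Ift22 rose from 537 and 487 to 1487 and 1528. Ahi1, of the transition zone at the base of the cilium, rose from 40.8 and 37.3 to 505 and 429 (2.02 to 3.13 over the alternatives), and the ciliary GTPase Arl3 from 762 and 701 to 3607 and 3062. Tmem216, also of the transition zone, was the lower member (-0.93), a call lost without 0 h array 1, 0 h array 2 or 24 h array 1 (adjusted p = 0.05 to 0.174) and with no filter (0.0828). Of the list, 28 of 49 genes were on the array, and without the filter 14 of 28 were higher and 0 lower, or 1 lower at an unadjusted p under 0.05.

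Genes best known from neurons and secretory vesicles were higher in 20 of 27 cases and lower in 1 (9 higher with the stricter filter), with a median log2 change of 1.11. Of the 27, 12 had both 0 h signals below the level that the filter used and so could pass only through later times, which makes that share no support by itself. Without the filter, 24 of 51 were higher and 1 lower, where all 12393 genes gave 13.5% and 11.1%. Rab3a, a GTPase of synaptic vesicles, rose from 52.5 and 26.5 to 426 and 388, the neuronal kinesin Kif5c from 16.1 and 2.5 to 217 and 186, and the adhesion molecule Ncam1 from 187 and 196 to 1127 and 1220. Low 0 h signals make the changes of Rab3a and Kif5c depend on the pseudocount, with ranges of 1.87 to 2.97 and 1.47 to 3.16, and the log2 change of Ncam1 was 2.43, or 1.92 by its second probe set. Necdin, Ndn, an imprinted growth suppressor of neurons, was the member that fell, from 2604 and 2601 to 1255 and 1100. Of the 5 enteric neuron and glia markers on the array, Uchl1 was higher and Sox10 was not called, the others did not pass the filter, and the summed signal was 2011 and 1584 at 0 h and 4472 and 4324 at 24 h. Their part in the result was not tested.

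Imprinted genes, of which only 1 parental copy is active, had 4 of 12 higher and 4 lower. Those that rose were Plagl1, Cdkn1c, Igf2 and Igf2r, and those that fell included Phlda2, from 677 and 667 to 157 and 231, and Peg3, from 3070 and 2730 to 1166 and 1103. Of the 12, 4 had both 0 h signals below the filter level; 1 member was higher with the stricter filter, and 4 of 22 were higher and 3 lower without a filter.

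A second probe set bore on many of these genes. The 1972 other probe sets of called genes that passed the filter had the same sign as the probe set used in 95.8% of cases. In 7 genes a second probe set passed the test with the other sign, namely Mtm1, Arpp19, Nectin2, Tprkb, Rpf2, Zwint and Tnks2. Of these, only Zwint is named above.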

How the data were processed

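Per the labels and the series design, the Affymetrix Mouse Expression Array 430A was read with total RNA of MCE301 cells and a phycoerythrin stain. The deposited table holds a linear intensity (signal) for 22690 probe sets on 8 arrays; the sources used here do not give the software that summarised probes. Groups came from the sample titles. The deposited intensities were used as they are, since all arrays had the same trimmed mean. The 64 control probe sets were left out. Of the rest, 20380 have 1 gene in the platform annotation, 691 have several and 1555 are not listed, and only the first were named; 20351 were found in RefSeq's GRCm38.p6 table, which changed 0 symbols. Probe sets above the median of all values (144.7) on 2 or more of the 8 arrays passed the filter, and of several that passed for a gene the one with the highest mean was used, giving 7340 genes.

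All 8 arrays were fitted on log2(signal + 32) with lmFit and eBayes (limma 3.58.1, R 4.3.3; residual df 4, prior df 6.373), and the contrast 24 h minus 0 h was called with Benjamini-Hochberg adjustment at 0.05. The procedure was tested on simulated data. The number of arrays, 2 per time, limits the precision. Except where said otherwise beside a gene, its name follows from the rule that comes next. The genes named are, among called genes with no overlap of the arrays, the 15 largest rises and the 15 largest falls, up to 4 members of each of 50 gene lists in the direction with more calls and up to 2 in the other, and a set of well-known butyrate genes called or not; not every one of them is printed. The gene lists, the members and the motifs were chosen with earlier results of these data known, so lists have counts and medians but no test. Promoter windows and their motifs are from RefSeq's GRCm38.p6 table.

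Every time has an array 1 and an array 2. In all 6 pairs of times the array 1 minus array 2 differences were correlated (r = 0.125 to 0.382). The fit reported has no block and so leaves this pairing out. Only the blocked fit, an alternative, treats arrays of the same number as pairs, a pairing that comes from the data. Alternatives were quantile normalization, pseudocounts of 16 and 100, no filter, a stricter filter (mean above the 60th percentile), the second probe set of a gene, only the 4 arrays compared, eBayes with trend and robust, the replicate block and leaving out each of the 4 arrays.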

Additional observations from a re-analysis of the deposited data

How the results depend on the processing

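Over the 13 alternatives the genes called higher at 24 h numbered 1332 to 2031 and those called lower 1261 to 1938, against 1806 and 1724. Without 1 array each, they were 1332 to 1433 and 1261 to 1357, and those at least 2-fold changed were 681 to 717 higher and 679 to 739 lower. The count at least 2-fold higher was 452 with a pseudocount of 100 and 429 under the stricter filter, against 679. With the replicate block, which follows the pairing of the arrays, 3969 genes were called, all 3530 of the fit without it among them, and it ended no call of a named gene; among named genes it added calls of Cdkn2b and Hdac3. Of the 274 named genes that were called, 228 kept the call in every alternative and 46 lost it in at least 1. The sign turned with the second probe set for Atp6v1e1 (-0.25, adjusted p = 0.608, limma) and Csf1 (0.019, adjusted p = 0.969). Signals below 32 made up 21.2% to 26.4% of an array, and there the size of a change follows the pseudocount.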
